A study of Mus musculus with 7 samples.

Results

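Phase II conjugation enzymes attach a polar group to a drug, a hormone, bilirubin or a reactive metabolite so that it can leave the cell. In the counts from cultured primary mouse hepatocytes, 45 genes of these enzymes were found among the 14819 rows of the table by gene symbol: 14 UDP-glucuronosyltransferases (symbols starting with Ugt1, Ugt2 or Ugt3), 8 sulfotransferases (Sult followed by a digit) and 23 glutathione transferases (Gst classes alpha, kappa, mu, omega, pi, theta and zeta, and Mgst). Membership was set by gene symbol alone, but the families were chosen with earlier results of these data known. Among the glutathione transferase symbols is *Gstm2-ps1*, annotated as a processed pseudogene. UDP-glucuronosyltransferases (UGTs) sit in the endoplasmic reticulum and transfer glucuronic acid from UDP-glucuronic acid. Sulfotransferases work in the cytosol and transfer sulfate from 3′-phosphoadenosine 5′-phosphosulfate (PAPS). Glutathione transferases (GSTs) join glutathione to electrophiles, and the membrane-bound forms (MGSTs) do so within membranes. Hepatocytes are the main site of all of these reactions, and the genes are controlled by liver factors such as HNF4A and by receptors and sensors of foreign compounds such as AHR, PXR, CAR and NRF2.

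The hepatocytes came from male mice of 2 genotypes, WT (n = 4 libraries) and WDR6-WKO (n = 3 libraries). WDR6-WKO mice carry a CRISPR–Cas9 deletion of exon 2 of *Wdr6* in the whole body, so the gene was altered in every cell type of the animal and not in hepatocytes alone. Cells were obtained by collagenase perfusion, kept in William's E medium with serum overnight and given no treatment. The study's methods name C57BL/6J at 7 weeks as the default for its mice and do not say separately whether this holds for the hepatocyte donors. Preparation dates and whether the WT mice were littermates are not given in the sources used here. The p-values measure the spread between these libraries, which are described as independent experiments.

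Total counts per library lay between 17816913 and 23668940, of which the 45 genes took 0.181% to 0.203%. *Wdr6* itself was counted 972, 776, 769 and 909 times in WT replicates 1 to 4 and 62, 49 and 40 times in WDR6-WKO replicates 1 to 3, so every library matched its label. Of the hepatocyte markers, *Alb* stood at 7366 ± 730 CPM (mean ± s.d., n = 4, as for all WT means below, with n = 3 for WDR6-WKO) and *Apob* at 5845 ± 479 CPM in WT, whereas *Fabp1*, at 0.760 ± 0.116 CPM, and *Tat*, at 1.5 ± 0.483 CPM, were near 0 in the same WT libraries. WDR6-WKO replicate 3 stood apart: without it the test called 2150 genes higher and 2083 lower over the whole table, against 983 and 914 with all libraries. Values below are CPM, counts scaled to a common library size with edgeR's TMM factors, and a gene was called where the adjusted p of edgeR's quasi-likelihood test, WDR6-WKO against WT, was under 0.05 over all 14779 genes tested. All 45 phase II genes were among these.

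Phase II genes were more often lower than higher in WDR6-WKO hepatocytes. Of the 45, 9 were called lower, 1 was called higher and 35 were not called, while over all genes tested 6.18% were called lower and 6.65% higher (12.8% in either direction). Called lower were the UGT genes *Ugt2b5*, *Ugt2b34* and *Ugt2b35*, the sulfotransferase genes *Sult1a1* and *Sult1d1*, and the GST genes *Gstm1*, *Gstm3*, *Gstt1* and *Gstz1*. *Gsto1* was the gene called higher. The 9 lower genes stood at 52.8% to 81.4% of their WT level, so none was lost from the cells. The log2 fold change was below 0 for 28 of the 45 and above 0 for 17, with a median of -0.14 against 0.01 for all genes tested. Over all genes tested it was below 0 for 7219 and above 0 for 7560. Without WDR6-WKO replicate 3 the counts were 11 lower and 5 higher, without WT replicate 1 there were 2 higher, and without WT replicate 3, WT replicate 4 or WDR6-WKO replicate 2 the number called higher was 0. With scaling by library size alone the table as a whole gave 1212 higher and 696 lower genes, and the phase II genes 2 higher and 9 lower.

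**Figure D1:**
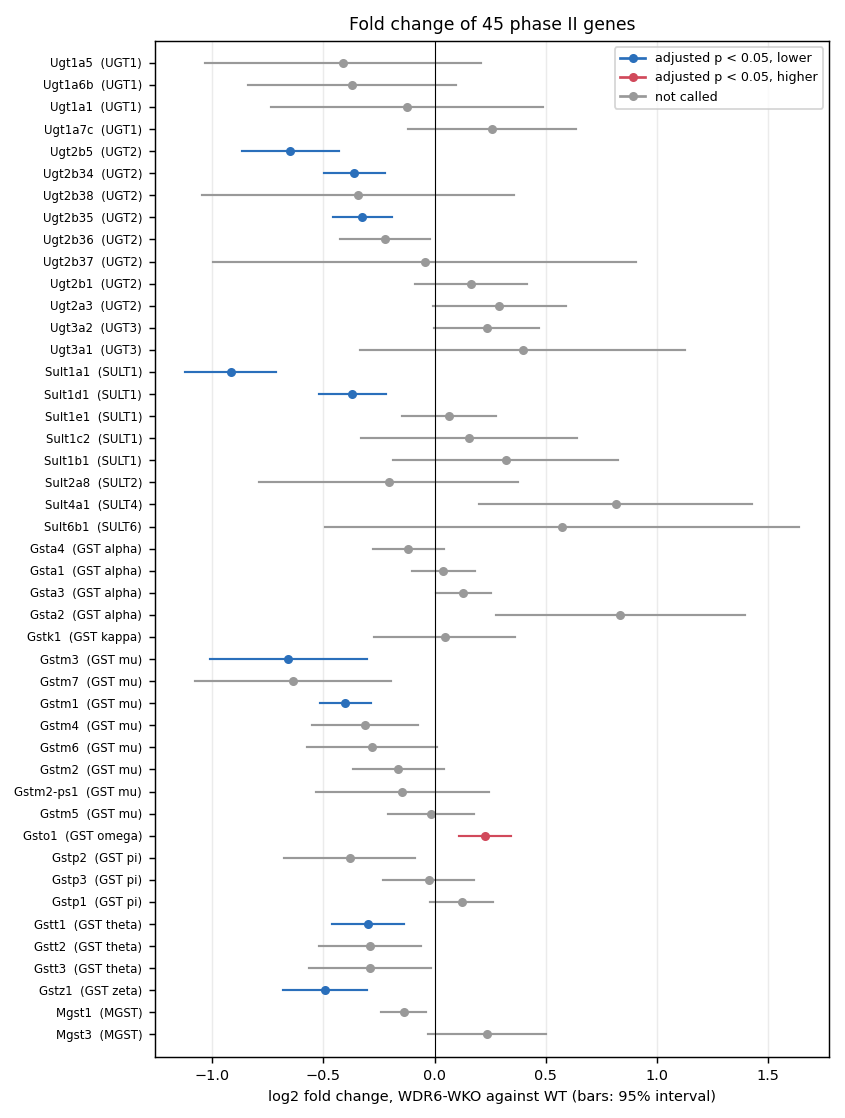
Log2 fold change of each of the 45 phase II genes, WDR6-WKO against WT, on the horizontal axis, grouped by class, with points for the estimate and bars for its 95% interval. The 9 genes called lower (blue) lie between -0.92 and -0.30, *Gsto1* (red) lies at 0.23, and the widest bars belong to genes of under 3 CPM.

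In all 10 called genes no WDR6-WKO library reached the WT range, and each gave p = 0.0286 in an exact permutation test on log2 CPM (two-sided), the smallest p possible with 4 libraries against 3. The test used the same libraries that gave the calls, so it adds no separate support. Of the 35 genes not called, 2 (*Gstm4* and *Gstm7*) gave the same permutation p. Of all 45 genes, 15 lay wholly below and 3 wholly above the WT range, where 11.7% and 11.8% of all genes tested did so (23.5% in either direction). With the study's own cut-offs (a log2 fold change of 0.35 or more in size and P under 0.05 without adjustment), 9 phase II genes were lower and 2 higher, beside 3.94% and 6.42% of all genes tested (10.4% in either direction). These were not the same genes. *Ugt2b35*, *Gstt1* and *Gsto1* did not meet the cut-offs, *Gstm7* and *Gstp2* were lower by them, and the 2 higher genes were *Gsta2* and *Sult4a1*. Calls were more frequent among abundant genes. Of the 7 members with a mean of at least 100 CPM, 4 were called, beside 21.2% of all genes at that level. From 10 to 100 CPM 5 of 17 members were called, beside 14.7%, and of the 21 members under 10 CPM 1 was called, beside 6.97%.

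**Figure D2:**
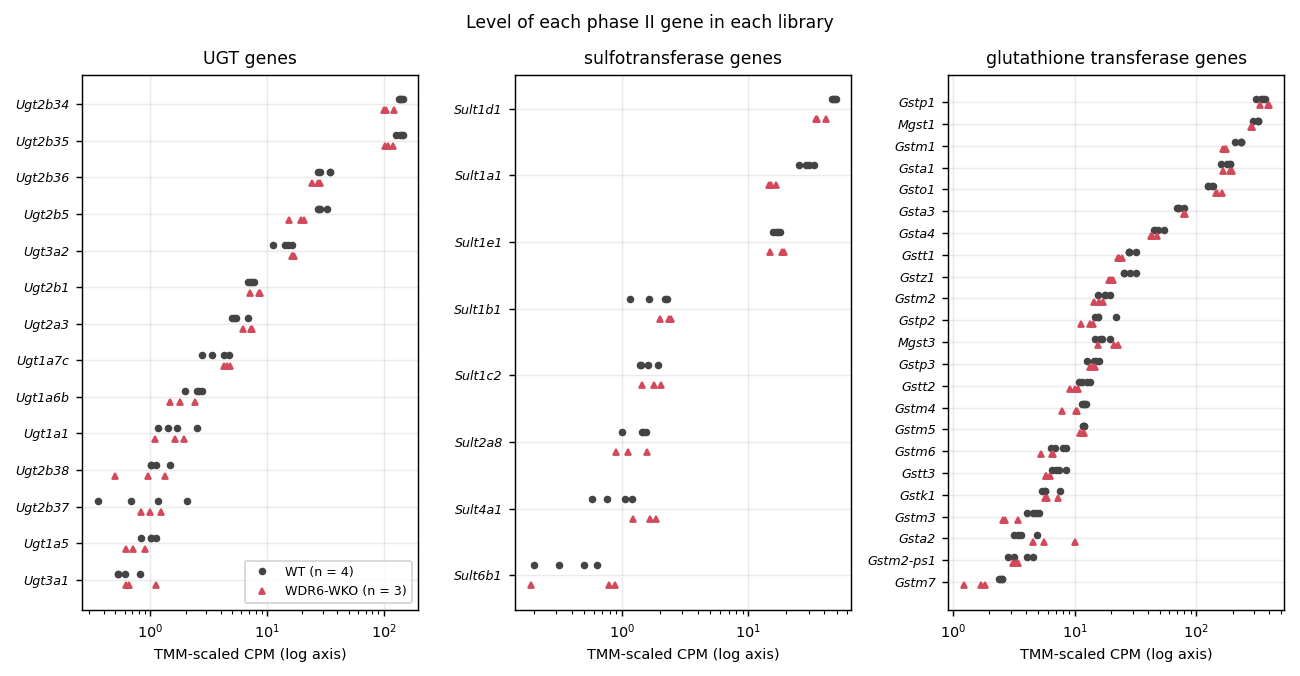
Level of each phase II gene in each library, in CPM on a log axis, with WT libraries as dark circles and WDR6-WKO libraries as red triangles, in panels for UGTs, sulfotransferases and GSTs. WDR6-WKO triangles lie left of the WT circles for the most abundant UGT2 and SULT1 genes, and the members span from under 1 CPM (*Sult6b1*) to over 300 CPM (*Gstp1*).

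Per length of transcript, GSTs dominated the phase II RNA of these cells. In WT, *Gstp1*, the pi-class enzyme, held 419 ± 30.1 CPM per kb, followed by *Mgst1*, a membrane-bound enzyme, at 269 ± 12.3, *Gsta1* of the alpha class at 205 ± 15.2, *Gstm1* of the mu class at 175 ± 9.97 and *Gsto1* of the omega class at 110 ± 5.09. The intervals of 1 s.d. of these 5 did not touch. The next genes, *Gsta3* at 49.98 ± 3.07, *Gsta4* at 49.5 ± 4.45 and *Ugt2b34* at 45.9 ± 1.62 CPM per kb, did not differ beyond their spread. *Ugt2b34* was the highest UGT on this scale, and *Sult1a1*, at 22.7 ± 2.49 CPM per kb, and *Sult1d1*, at 19.7 ± 0.585, were the highest sulfotransferases and did not differ beyond their spread. In WDR6-WKO hepatocytes *Sult1a1* held 12.0 ± 0.867 and *Sult1d1* 15.3 ± 1.52 CPM per kb. Summed CPM over a family, a description with no test, was 378 ± 12.4 for the UGTs in WT and 309 ± 24.6 in WDR6-WKO, or 81.6% of WT. The sulfotransferase sum was 99.9 ± 3.00 and 77.5 ± 4.01 CPM, or 77.6%. Neither sum overlapped between the genotypes. The GST sum, at 1509 ± 70.6 and 1461 ± 64.4 CPM, or 96.9%, did overlap. Less RNA per hepatocyte and fewer hepatocytes in a preparation cannot be told apart in such sums or in any gene below.

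Every UGT gene that was called belonged to the UGT2 branch. In this branch, whose enzymes glucuronidate steroids, bile acids and many drugs, 3 of 8 genes were called lower and 0 higher. Over all genes tested, 6.18% were called lower and 6.65% higher. *Ugt2b5* (chromosome 5, 87124960 to 87140318 of GRCm38, minus strand, 6 exons) was counted at 27.5, 27.7, 28.6 and 32.8 CPM in WT replicates 1 to 4 and at 19.6, 15.4 and 20.9 CPM in WDR6-WKO replicates 1 to 3. Each WDR6-WKO library lay well under the lowest WT library, and the mean fell to 63.8% of WT, a log2 fold change of -0.65 (standard error, s.e., 0.10, edgeR adjusted p = 0.000589). *Ugt2b5* shares 41.7% of its 50-base sequences with other transcripts, above all *Ugt2b38*, so its reads may have been divided among paralogs.

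*Ugt2b34* (chromosome 5, 86889767 to 86906937, minus strand, 6 exons) was counted at 142, 146, 134 and 139 CPM in WT and at 104, 101 and 122 CPM in WDR6-WKO. The log2 fold change was -0.36 (s.e. 0.06, edgeR adjusted p = 0.00146), or 77.9% of WT. *Ugt2b35* (chromosome 5, 87000860 to 87013275, plus strand, 6 exons) stood at 146, 137, 128 and 144 CPM in WT and at 109, 103 and 121 CPM in WDR6-WKO, a log2 fold change of -0.32 (s.e. 0.06, edgeR adjusted p = 0.00291). Both genes had the same order of the WDR6-WKO libraries, with replicate 3 nearest to WT and replicate 2 farthest from it. Little of their sequence is shared with other transcripts, 2.07% for *Ugt2b34* and 0.725% for *Ugt2b35*.

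*Ugt2b36* was as abundant as *Ugt2b5* in WT, at 31.1 ± 3.75 CPM, and stood at 26.6 ± 2.32 CPM in WDR6-WKO, where the ranges overlapped and the gene was not called (log2 fold change -0.22, 95% interval -0.43 to -0.02, edgeR adjusted p = 0.137). The other UGT2 genes were at or below 8.17 CPM in either genotype. Of these *Ugt2b1*, at 7.29 ± 0.338 and 8.17 ± 0.858 CPM, had a log2 fold change of 0.16 (95% interval -0.09 to 0.41), which does not reach the estimate for *Ugt2b34*.

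UGT1 genes, among them *Ugt1a1*, whose product conjugates bilirubin, were barely counted in these cultures. The 4 members lay between 0.614 and 4.77 CPM in every library, and none was called. *Ugt1a1* stood at 1.70 ± 0.585 CPM in WT and 1.55 ± 0.437 CPM in WDR6-WKO, with a 95% interval of the log2 fold change from -0.74 to 0.49. Changes in either direction within these bounds remain compatible with the counts. The UGT1 genes share their last exons, and between 40.9% and 80.7% of their 50-base sequences occur in other transcripts. *Ugt3a2*, of a branch that uses UDP-sugars other than UDP-glucuronic acid, was counted at 15.2, 16.4, 11.3 and 14.2 CPM in WT and at 17.1, 16.4 and 16.8 CPM in WDR6-WKO. It did not pass the test (log2 fold change 0.23, edgeR adjusted p = 0.180).

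*Sult1a1*, the phenol sulfotransferase that acts on drugs and dietary phenols, had the largest fall of the 45 genes. It lies on chromosome 7 from 126672865 to 126676432 (minus strand, 8 exons) and was counted at 25.4, 28.4, 33.0 and 30.2 CPM in WT and at 16.7, 15.2 and 14.5 CPM in WDR6-WKO. The gap between the highest WDR6-WKO and the lowest WT library was wider than the whole WT range. The mean was 52.8% of WT, a log2 fold change of -0.92 (s.e. 0.10, edgeR adjusted p = 1.21e-05). *Sult1a1* shares 9.19% of its 50-base sequences with other transcripts and 61 exon bases with *Sgf29* on the opposite strand. *Sgf29* was not called (log2 fold change 0.20, edgeR adjusted p = 0.255).

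*Sult1d1*, a sulfotransferase of dopamine and related amines (chromosome 5, 87554645 to 87569027, minus strand, 8 exons), stood at 49.6, 48.2, 46.3 and 47.0 CPM in WT and at 34.6, 35.3 and 41.3 CPM in WDR6-WKO. Replicate 3 was again the WDR6-WKO library nearest to WT. The log2 fold change was -0.37 (s.e. 0.07, edgeR adjusted p = 0.00255), or 77.5% of WT. Its neighbour *Sult1e1*, the oestrogen sulfotransferase, was at 16.8 ± 0.957 CPM in WT and 17.6 ± 2.37 CPM in WDR6-WKO, with a log2 fold change of 0.06 and a 95% interval from -0.15 to 0.27. The remaining 5 sulfotransferase genes were below 2.5 CPM in every library and were not called. Among them *Sult4a1*, an orphan enzyme known from brain, was counted at 0.756, 0.576, 1.06 and 1.2 CPM in WT and at 1.66, 1.84 and 1.23 CPM in WDR6-WKO (log2 fold change 0.81, edgeR adjusted p = 0.0759). Its ranges were separate by a narrow margin, and it was called higher without WDR6-WKO replicate 3 (edgeR adjusted p = 0.0217).

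**Figure D3:**
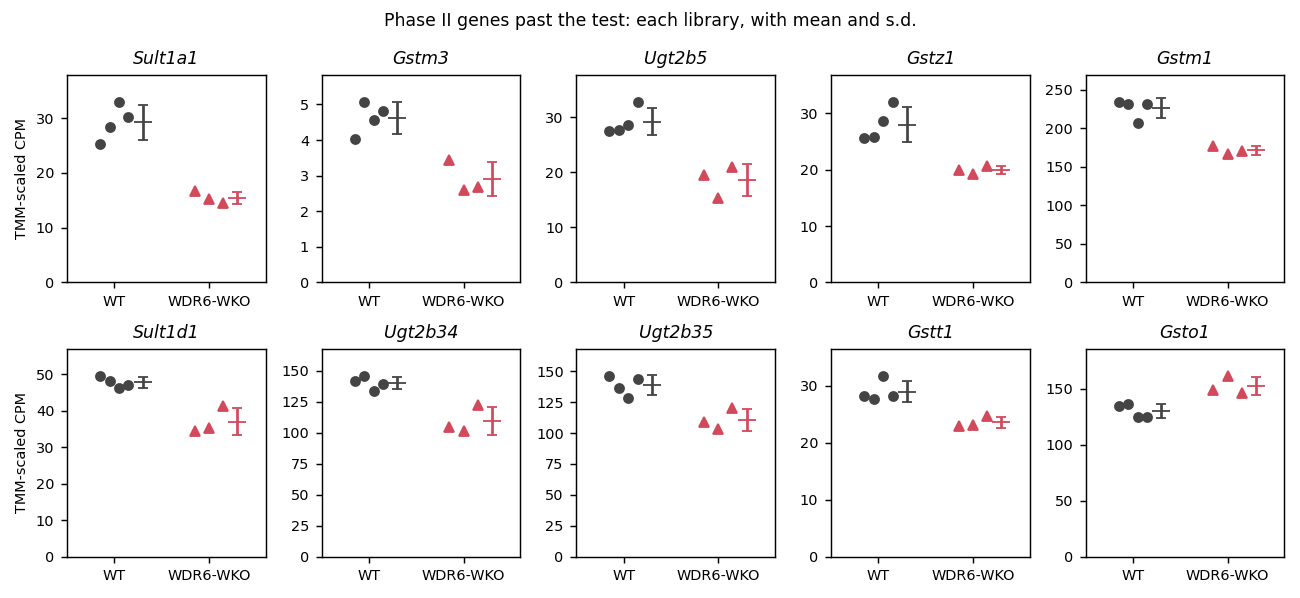
CPM of the 10 called phase II genes in each library, with WT as dark circles and WDR6-WKO as red triangles, and the mean with 1 s.d. beside each group (n = 4 and 3), on axes that start at 0. In 9 panels every WDR6-WKO library lies below every WT library, by the widest relative margin in *Sult1a1*, and in *Gsto1* every WDR6-WKO library lies above.

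Among the GSTs the mu class, which conjugates epoxides and other electrophiles, held 2 of the 4 genes called lower. Of its 8 genes 2 were called lower and 0 higher, beside 6.18% and 6.65% of all genes tested. The log2 fold change was below 0 in all 8 mu-class genes (with scaling by library size alone *Gstm5* stood at 0.01), and their median was -0.30. Over all genes tested it was below 0 for 7219 of 14779, with a median of 0.01. The 8 include the processed pseudogene *Gstm2-ps1*, of whose 50-base sequences 46.9% occur in other transcripts, mainly *Gstm1*. The summed mu-class level was 286 ± 13.5 CPM in WT and 222 ± 8.06 CPM in WDR6-WKO, or 77.7%. *Gstm1* (chromosome 3, 108012255 to 108017973, minus strand, 8 exons), which held most of that sum, was counted at 235, 232, 207 and 232 CPM in WT and at 177, 166 and 171 CPM in WDR6-WKO. WT replicate 3 was the lowest WT library by a clear gap and still lay above all WDR6-WKO libraries. The log2 fold change was -0.40 (s.e. 0.05, edgeR adjusted p = 0.000127). *Gstm1* shares 23.1% of its 50-base sequences with other transcripts, mostly with the pseudogene *Gstm2-ps1*, itself at 3.64 ± 0.778 CPM in WT.

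*Gstm3* (chromosome 3, 107963696 to 107969283, minus strand, 8 exons) was a low mu-class gene, at 4.03, 5.08, 4.57 and 4.82 CPM in WT and 3.45, 2.60 and 2.68 CPM in WDR6-WKO. Its log2 fold change was -0.66 (s.e. 0.17, edgeR adjusted p = 0.0161), and 28.8% of its 50-base sequences occur in other transcripts. The call was lost without WT replicate 2 (edgeR adjusted p = 0.0532) and without WDR6-WKO replicate 2 (0.0833). *Gstm7*, with no shared sequence, had a similar estimate without passing the test. It was counted at 2.42, 2.51, 2.55 and 2.41 CPM in WT and at 1.70, 1.23 and 1.84 CPM in WDR6-WKO (log2 fold change -0.64, 95% interval -1.08 to -0.20, edgeR adjusted p = 0.0547), and was called lower without WDR6-WKO replicate 3 (edgeR adjusted p = 0.0230). *Gstm2*, at 17.7 ± 1.65 and 15.8 ± 1.23 CPM, *Gstm4*, at 12.0 ± 0.335 and 9.60 ± 1.45, and *Gstm6*, at 7.5 ± 0.946 and 6.17 ± 0.715, were not called. *Gstm5*, at 11.8 ± 0.130 CPM in WT and 11.6 ± 0.466 CPM in WDR6-WKO, had a log2 fold change of -0.02 with a 95% interval from -0.21 to 0.18, which does not reach the estimate for *Gstm1*.

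The other GSTs called lower were of the zeta and theta classes. *Gstz1*, the maleylacetoacetate isomerase of tyrosine breakdown (chromosome 12, 87147165 to 87164723, plus strand, 9 exons), was counted at 25.5, 25.7, 28.7 and 32.0 CPM in WT and at 19.9, 19.2 and 20.6 CPM in WDR6-WKO. The WDR6-WKO libraries were close together and all below WT, at a log2 fold change of -0.49 (s.e. 0.09, edgeR adjusted p = 0.00176). *Gstz1* shares 127 exon bases with *Pomt2* on the opposite strand, which was not called (log2 fold change -0.12). *Gstt1*, a theta-class enzyme that conjugates small halogenated compounds (chromosome 10, 75783813 to 75798584, minus strand, 5 exons), stood at 28.3, 27.8, 31.7 and 28.2 CPM in WT and at 22.9, 23.2 and 24.7 CPM in WDR6-WKO. Its log2 fold change was -0.30 (s.e. 0.08, edgeR adjusted p = 0.0170). The call was lost without WT replicate 3 (edgeR adjusted p = 0.0692), WDR6-WKO replicate 1 (0.0735) or WDR6-WKO replicate 2 (0.0672). *Gstt2* and *Gstt3* next to it had log2 fold changes of -0.29 each and separate ranges, but did not pass the test (edgeR adjusted p = 0.0891 and 0.152).

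*Gsto1*, the omega-class enzyme that reduces dehydroascorbate and protein mixed disulfides (chromosome 19, 47854970 to 47864790, plus strand, 6 exons), went the other way. It was counted at 135, 136, 125 and 125 CPM in WT and at 149, 161 and 146 CPM in WDR6-WKO, and every WDR6-WKO library exceeded every WT library. The mean rose to 117% of WT, a log2 fold change of 0.23 (s.e. 0.05, edgeR adjusted p = 0.0123). The call was lost without WT replicate 3 (edgeR adjusted p = 0.0550), WT replicate 4 (0.0549) or WDR6-WKO replicate 2 (0.0721).

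*Gstp1* and *Mgst1*, the highest of the 45 genes per length, were not called. *Gstp1* was counted at 367, 357, 310 and 340 CPM in WT and at 397, 390 and 335 CPM in WDR6-WKO. The groups overlapped through WDR6-WKO replicate 3 (log2 fold change 0.12, 95% interval -0.02 to 0.26, edgeR adjusted p = 0.245), and without that library *Gstp1* was called higher (0.19, edgeR adjusted p = 0.00554). Without WDR6-WKO replicate 1 its log2 fold change was 0.07 (edgeR adjusted p = 0.604), and without WT replicate 3 it was 0.08 (0.532). It shares 62.3% of its 50-base sequences with *Gstp2*, which stood at 17.0 ± 3.43 and 13.0 ± 1.55 CPM (log2 fold change -0.38, edgeR adjusted p = 0.0827) and was called lower by DESeq2 (adjusted p = 0.0478). Without WT replicate 1, its highest library, *Gstp2* had a log2 fold change of -0.23 (edgeR adjusted p = 0.197). *Mgst1* stood at 320, 324, 293 and 319 CPM in WT and at 287, 284 and 285 CPM in WDR6-WKO. Its WDR6-WKO libraries were almost equal and below WT, by a log2 fold change of -0.14 that did not pass the test (95% interval -0.24 to -0.04, edgeR adjusted p = 0.0682) but did without WDR6-WKO replicate 3 (0.0125) or WT replicate 3 (0.0485). The less abundant *Mgst3*, at 16.8 ± 2.06 and 19.7 ± 3.69 CPM, was not called (log2 fold change 0.23) except higher without WDR6-WKO replicate 3 (edgeR adjusted p = 0.00394), and without WDR6-WKO replicate 2 its log2 fold change was 0.13 (edgeR adjusted p = 0.644).

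Alpha-class GSTs, which reduce lipid hydroperoxides and conjugate their products, gave no call. *Gsta1*, at 179 ± 13.3 CPM in WT and 184 ± 15.6 CPM in WDR6-WKO, had a log2 fold change of 0.04 with a 95% interval from -0.10 to 0.18, although 89.7% of its 50-base sequences occur in other transcripts, mainly *Gm3776*, itself not called (0.14). *Gsta3*, at 72.8 ± 4.47 and 79.6 ± 0.634 CPM, and *Gsta4*, at 48.4 ± 4.34 and 44.5 ± 2.85 CPM, were not called either. With all libraries *Gsta2* had the highest log2 fold change of the 45 genes, 0.84 (95% interval 0.28 to 1.4, edgeR adjusted p = 0.0532). It was counted at 4.89, 3.46, 3.62 and 3.16 CPM in WT and at 5.61, 10.1 and 4.52 CPM in WDR6-WKO, with WDR6-WKO replicate 2 far above the rest, and the ranges overlapped. It was called higher by DESeq2 (adjusted p = 0.00880), and by edgeR without WT replicate 1 (adjusted p = 0.0376) or without WDR6-WKO replicate 3 (0.00145). Without WDR6-WKO replicate 2, its log2 fold change was 0.43 (edgeR adjusted p = 0.231). Of its 50-base sequences, 64.2% occur in other transcripts.

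Many of these genes lie side by side, and calls did not run through whole clusters. The 45 genes fall into 19 loci. On chromosome 5 from 86889767 to 87591594, 8 UGT2 genes and the sulfotransferase genes *Sult1b1*, *Sult1d1* and *Sult1e1* form a block of 11 members, 4 of them called lower and 7 with a log2 fold change below 0 (with the replicate block *Ugt2b37* stood at 0.16). Over all genes tested 6.18% were called lower, and 7219 of 14779 had a log2 fold change below 0. *Ugt2b34* and *Ugt2b35* fell, while *Ugt2b1*, which lies between them, was not called. Whether neighbours differ from each other was not tested. On chromosome 3 from 107895821 to 108044894, 7 mu-class genes form a block in which 2 were called lower, beside the same 6.18% of all genes tested.

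**Figure D4:**
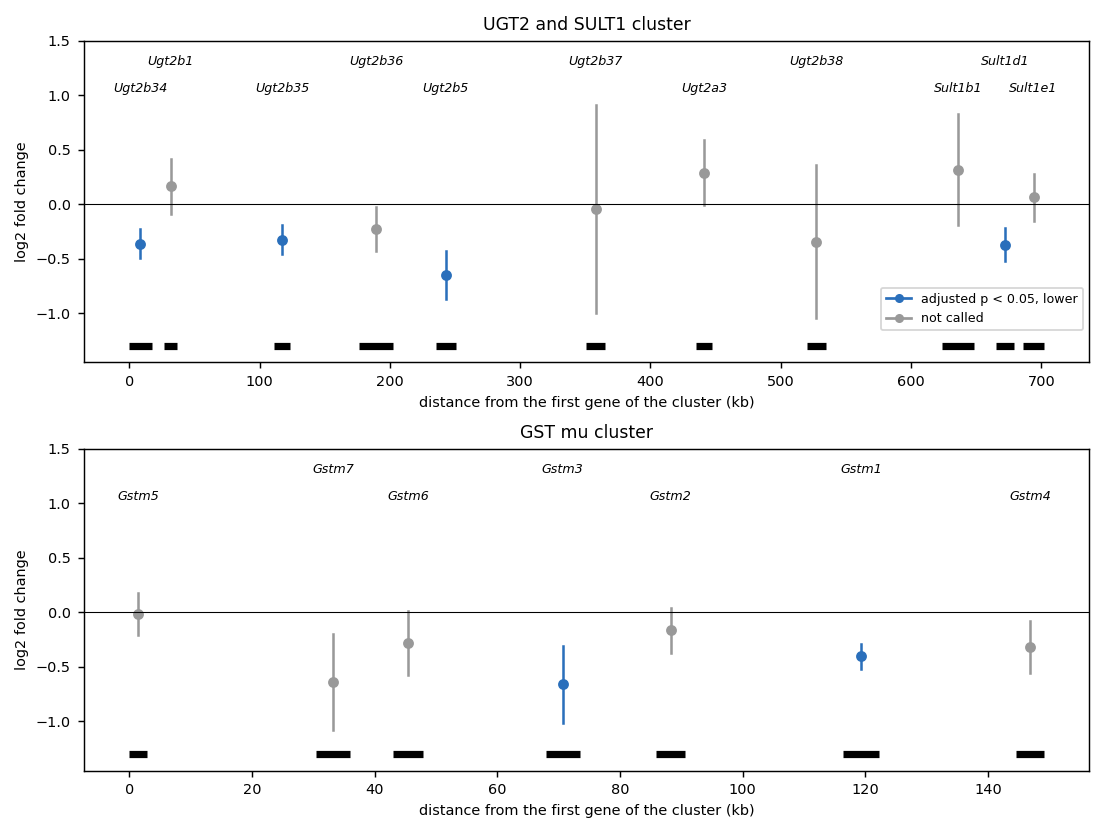
Log2 fold change of the phase II genes in the chromosome 5 block (top) and the mu-class block (bottom) against distance from the first gene in kb, with bars for the 95% interval and black bars at the bottom for the extent of each gene. Genes called lower (blue) lie among genes not called (grey) in the top panel. The 4 genes in a row between *Ugt2b5* and *Sult1d1* that were not called had WT means of 1.07 to 5.66 CPM. All 7 points of the bottom panel lie below 0.

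The promoters of both sulfotransferase genes called lower, of the most abundant mu-class gene and of the gene called higher are shown because the factors known to bind such sequences were themselves measured here. Each is the 250 bases before the start of a RefSeq transcript (GRCm38.p6), 5′ to 3′ on the strand of the gene. They cover chr7:126676419-126676668 (minus strand) for *Sult1a1*, chr5:87569007-87569256 (minus) for *Sult1d1*, chr3:108017974-108018223 (minus) for *Gstm1* and chr19:47854723-47854972 (plus) for *Gsto1*. Capitals mark the letters of 1 of the motifs searched, on either strand.
Sult1a1: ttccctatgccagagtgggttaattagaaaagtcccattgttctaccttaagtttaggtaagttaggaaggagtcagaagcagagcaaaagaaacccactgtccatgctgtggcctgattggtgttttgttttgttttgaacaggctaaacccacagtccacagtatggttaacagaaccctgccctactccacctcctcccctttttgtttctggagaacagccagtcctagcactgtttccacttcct
Sult1d1: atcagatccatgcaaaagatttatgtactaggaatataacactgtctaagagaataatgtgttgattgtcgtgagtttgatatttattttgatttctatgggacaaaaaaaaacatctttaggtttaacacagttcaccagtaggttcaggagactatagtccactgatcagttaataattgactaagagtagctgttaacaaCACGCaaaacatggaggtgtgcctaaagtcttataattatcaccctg
Gstm1: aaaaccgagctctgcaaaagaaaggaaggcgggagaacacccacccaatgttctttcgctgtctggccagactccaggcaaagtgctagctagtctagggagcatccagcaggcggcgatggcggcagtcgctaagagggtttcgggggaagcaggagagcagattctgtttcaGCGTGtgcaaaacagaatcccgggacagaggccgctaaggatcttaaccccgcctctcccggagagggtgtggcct
Gsto1: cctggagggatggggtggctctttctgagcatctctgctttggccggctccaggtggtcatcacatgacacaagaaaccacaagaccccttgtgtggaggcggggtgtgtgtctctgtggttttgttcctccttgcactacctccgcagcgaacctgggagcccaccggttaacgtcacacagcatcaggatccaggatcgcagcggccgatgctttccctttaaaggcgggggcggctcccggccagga
*Sult1d1* holds the AHR core GCGTG, on the opposite strand, 47 bases before the start, and *Gstm1* holds GCGTG at 76 bases. *Gstm1* has a further RefSeq start downstream, and from that start the same GCGTG lies at 231 bases. The *Sult1a1* and *Gsto1* sequences hold none of the motifs.

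RefSeq windows of 300 bases, 250 before and 50 after the start, were at hand for 39 of the 45 genes in 49 windows. GCGTG occurred in 22.4% of these 49 windows and in 32.4% of all 32851 windows, and TGACNNNGC, the core of the antioxidant response element bound by NRF2, in 8.16% and 12.4%. The ATF4 element TGATGNAA occurred in 2.04% and 3.97%, and the E-box CACGTG in 0% and 7.15%. Of the 9 genes called lower, 2 held GCGTG and none held TGACNNNGC, which was found in *Gsta3*, *Gstm5*, *Gstm7* and *Mgst1*. These matches describe letters in a window and not binding.

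Genes that supply, control or neighbour these enzymes in function were described by 10 lists, which also hold targets of the receptors and genes of lobule position. Of the 115 different genes tested, 32 were called lower and 13 higher, where 6.18% and 6.65% of all genes tested were, and where 21.2% of all genes at 100 CPM and over were called in either direction. Among 16 receptors and factors known to control conjugating enzymes, 7 were called lower and 1 higher, beside the same 6.18% and 6.65% of all genes. *Ahr*, the aryl hydrocarbon receptor, fell from 228 ± 5.81 CPM in WT to 160 ± 15.1 CPM in WDR6-WKO, a log2 fold change of -0.51 (edgeR adjusted p = 3.34e-05). *Nfe2l2*, which encodes NRF2, fell from 434 ± 9.36 to 337 ± 21.4 CPM (-0.37, edgeR adjusted p = 0.000148), and *Hnf4a* from 385 ± 11.4 to 320 ± 27.7 CPM (-0.27, edgeR adjusted p = 0.00502). *Arnt*, the partner of AHR, *Nr1i2*, which encodes PXR, *Nr1h4* and *Cebpa* were called lower by 0.21 to 0.31 on the log2 scale, and *Mafg*, a small MAF partner of NRF2, was called higher (0.18). *Keap1*, the inhibitor of NRF2, stood at 0.01.

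Targets of these factors did not share 1 direction, and their counts stand beside 6.18% lower and 6.65% higher over all genes. Of 13 NRF2 targets, 3 were called higher and 2 lower. *Slc7a11*, the cystine importer, rose by a log2 fold change of 0.56, *Osgin1* by 0.40 and *Srxn1* by 0.20, while *Gclc* and *Me1* fell by 0.28 and 0.21 on the log2 scale. *Nqo1*, a textbook NRF2 target, stood at 0.25 without passing the test (edgeR adjusted p = 0.0749), and *Hmox1* at -0.07. Of 4 AHR targets, *Tiparp* was called higher (0.34) and *Cyp1a2* lower (-0.45), and *Cyp1a1* was near 0, at 0.387 CPM in WT. Of 4 targets of CAR and PXR, *Gadd45b* was called higher (0.48), while *Cyp3a11*, at 4.20 CPM in WT, had a log2 fold change of -0.55 that did not pass the test (edgeR adjusted p = 0.0710).

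Of 12 genes of cofactor supply for the UGTs and sulfotransferases, 4 were called lower and 0 higher, beside 6.18% and 6.65% of all genes. *Ugdh*, which makes UDP-glucuronic acid, fell from 704 ± 20.2 CPM to 605 ± 25.1 CPM, a log2 fold change of -0.22 (edgeR adjusted p = 0.00519), and *Ugp2*, which makes its precursor UDP-glucose, by the same -0.22 (edgeR adjusted p = 0.0251). On the sulfate side, *Slc26a1*, a sulfate transporter, fell from 8.98 ± 1.80 to 4.87 ± 0.267 CPM (-0.88, edgeR adjusted p = 0.00158) and *Papss2*, a PAPS synthase, from 83.5 ± 3.97 to 72.7 ± 1.81 CPM (-0.20, edgeR adjusted p = 0.0285). The other PAPS synthase gene, *Papss1*, stood at 27.9 ± 2.24 and 26.5 ± 1.59 CPM and was not called.

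Of 23 genes of glutathione synthesis, recycling and mercapturate formation, 4 were called lower and 2 higher, beside 6.18% and 6.65% of all genes, so that the count of higher genes was near that of the table as a whole. *Gclc*, the catalytic subunit of the rate-limiting step of glutathione synthesis, fell from 2513 ± 73.2 to 2068 ± 128 CPM (-0.28, edgeR adjusted p = 0.00147), while its modifier *Gclm* (-0.07) and glutathione synthetase *Gss* (0.02) were not called. *Chac1*, which breaks glutathione down, rose from 7.32 ± 2.23 to 36.3 ± 4.73 CPM (2.31, edgeR adjusted p = 5.48e-05), and *Slc7a11* rose from 154 ± 7.23 to 228 ± 20.2 CPM. In the mercapturate branch, *Anpep*, a peptidase that trims glutathione conjugates, fell to 19.7 ± 0.178 from 31.7 ± 1.44 CPM (-0.69) and *Nat8f2*, of the family of conjugate N-acetyltransferases, to 37.5 ± 3.2 from 57.0 ± 6.95 CPM (-0.60). *Oplah*, which recycles 5-oxoproline, fell by 0.34 on the log2 scale.

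Export and the other conjugation routes showed calls in both directions, given here beside 6.18% lower and 6.65% higher over all genes. Among 8 exporters of conjugates 4 were called lower, *Abcc3* (-0.26), *Abcc4* (-0.23), *Abcc6* (-0.52) and *Abcb1b* (-0.21), and the bile salt pump *Abcb11* was called higher (0.25). *Abcc2*, the canalicular exporter of glucuronides and glutathione conjugates, stood at 499 ± 15.8 and 461 ± 23.9 CPM and was not called. Of 20 genes of other conjugating enzymes, methyltransferases, acyltransferases and epoxide hydrolases among them, 4 were called lower and 2 higher. *Mettl7b* (-0.60), *Ephx2* (-0.32) and *Acsm3* (-1.03) were the lower genes with the smallest p, and *Nnmt* (0.27) and *Slc27a5* (0.27) were higher.

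**Figure D5:**
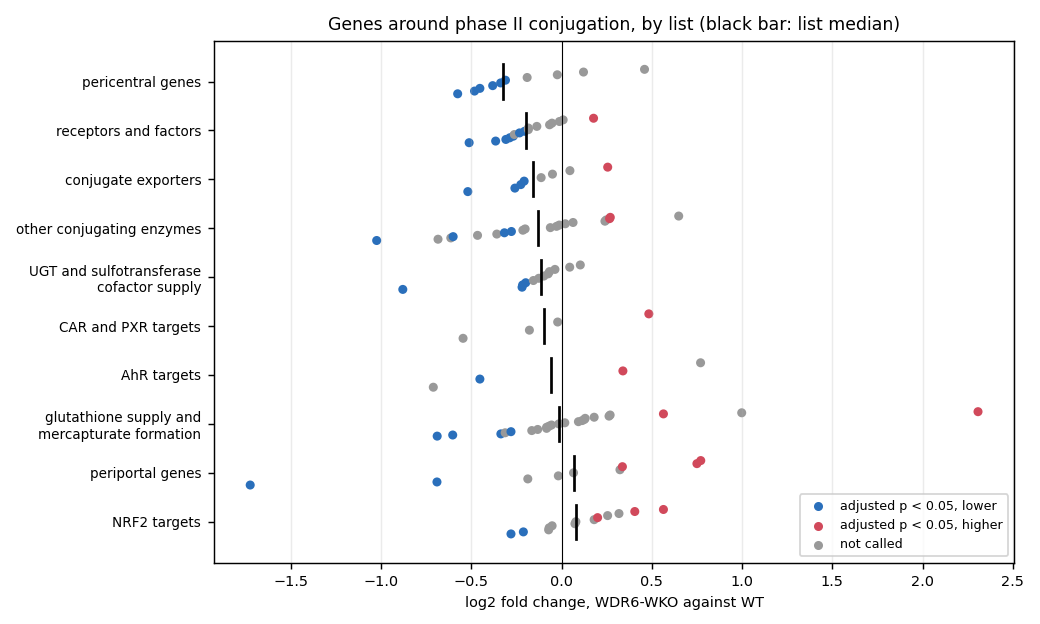
Log2 fold change of each tested gene (points) of the 10 related lists, WDR6-WKO against WT, with the list median as a black bar and genes called lower in blue, called higher in red and not called in grey. Medians run from -0.33 in the pericentral genes to 0.08 in the NRF2 targets, and *Chac1* lies farthest to the right at 2.31.

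Genes of lobule position and markers of cell types are given as counts beside the 6.18% lower and 6.65% higher over all genes. Of 10 pericentral hepatocyte genes outside the conjugating enzymes, 6 were called lower and 0 higher, with the smallest p for glutamine synthetase *Glul* (-0.58), *Oat* (-0.31) and *Lect2* (-0.38). Of 9 periportal genes 3 were called higher, *Arg1* (0.77), *Cdh1* (0.34) and *Cyp2f2* (0.75), and 2 lower, *Cps1* (-0.69) and *Pck1* (-1.73). Kupffer cell markers, of which 4 of 15 were called higher and 0 lower, summed to 1071 to 1173 CPM in WT and 1238 to 1435 CPM in WDR6-WKO, and cholangiocyte markers, with 2 of 6 called higher, to 3099 to 3394 and 3742 to 4337 CPM. Hepatocyte markers, with 3 of 8 called lower (*Cps1*, *Hnf4a* and *Apoa1*), summed to 13313 to 15886 CPM in WT and 12299 to 14208 CPM in WDR6-WKO. These ranges overlapped, and *Alb* and *Apob*, the most abundant of the 8, were not called. The sums of 10 stellate cell markers, 815 to 843 and 803 to 873 CPM, and of 10 endothelial markers, 421 to 477 and 399 to 468 CPM, overlapped, with 2 stellate markers called higher and 1 lower and no endothelial marker called. The part of these differences in the phase II genes was not tested.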

How the data were processed

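The submitters isolated RNA with Trizol, made libraries with the NEBNext Ultra RNA kit and sequenced them on an Illumina HiSeq. They aligned the reads to mm10 with Bowtie 2.2.3. The deposited values are raw read counts per gene symbol for 4 WT and 3 WDR6-WKO libraries, not normalized by the authors. The counting tool, annotation and strand setting are not given in the sources used here, so reads of a gene and of an antisense partner cannot be told apart. No row of the table sums to fewer than 50 counts. Total counts ranged from 17816913 to 23668940 per library, and counts of every pair of replicates differed by more than sampling noise.

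Counts were tested with edgeR 4.0.16 in R 4.3.3 (TMM scaling, filterByExpr, robust quasi-likelihood fit, all 7 libraries, no covariate), with Benjamini-Hochberg adjustment over 14779 genes and a threshold of 0.05. The s.e. is the log2 fold change divided by the root of F. The exact permutation tests used log2(CPM + 0.1) and the 35 possible assignments of libraries to genotypes. Levels per kb used the principal GENCODE M21 transcript. Shared sequence is the percentage of the 50-base words of a gene that also occur in another gene. Alternatives were DESeq2 1.42.0, median-of-ratios factors, library sizes without TMM, no expression filter, a minimum of 10 counts per library, the replicate number as a block, each library left out, the thresholds of the study, and leaving out genes with over 5% shared sequence. The edgeR and DESeq2 tests, but not the other steps, were tried on simulated counts.

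The members, gene lists and markers were chosen with earlier results of these data known. Named are *Wdr6*, every called member, the member with the highest level per kb and up to 3 uncalled members by CPM in each family, and in each related list up to 3 called genes in either direction and genes of a defining role. Other members and exporters are named where a result turns on them, and these were chosen after their values were seen.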

Additional observations from a re-analysis of the deposited data

Results flagged for a closer look

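In 59 WT groups of 4 libraries, single genes and summed classes, 9 had a library whose gap to the nearest other library exceeded the 95% critical value of Dixon's test, which chance alone exceeds in about 1 of 20 groups. WT replicate 3 was the library set apart in 7 of the 9. It was lowest for *Gstm1* at 207 CPM (the others 232 to 235), for *Mgst1* at 293 CPM (319 to 324), for the summed mu-class GSTs at 266 CPM (291 to 294), for the summed MGSTs at 307 CPM (336 to 340) and for all 45 genes summed at 1869 CPM (2017 to 2042). It was highest for *Gstk1* at 7.55 CPM (5.39 to 5.70) and for *Gstt1* at 31.7 CPM (27.8 to 28.3). WT replicate 1 was highest for *Gstp2* at 22.1 CPM (14.8 to 15.5) and lowest for the summed SULT1 genes at 93.1 CPM (98.3 to 99.0). The sums hold the single genes named, so these values are not independent of each other.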

How the results depend on the processing

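*Sult1a1*, *Ugt2b5*, *Ugt2b34*, *Ugt2b35*, *Gstz1*, *Gstm1* and *Sult1d1* were called lower under each of 13 alternatives (DESeq2, other scalings, other filters, the replicate block and each library left out). Of these genes *Ugt2b35* did not meet the study's thresholds, and *Sult1a1*, *Ugt2b5* and *Gstm1* were left out by the limit of 5% on shared sequence. The number of members called higher, 1 in the test reported, was 2 with DESeq2, 2 with library sizes alone, 2 with at least 10 counts in every library, 2 with the study's thresholds, and 0 to 5 with each library left out. By the study's thresholds the 2 were *Gsta2* and *Sult4a1*, without *Gsto1*. The number called lower, 9, was 5 without members of over 5% shared sequence and 7 to 11 with each library left out. For the related lists, leaving out each library gave 8 to 21 genes higher (13 reported) and 21 to 43 lower (32 reported), with the most calls without WDR6-WKO replicate 3. Members near 0 changed sign. *Gstm5* stood at 0.010 with library sizes alone, and with each library left out the log2 fold change ranged from -0.34 to 0.12 for *Ugt1a1*, -0.066 to 0.16 for *Gstk1*, -0.34 to 0.49 for *Ugt2b37*, -0.015 to 0.10 for *Gsta1*, -0.088 to 0.019 for *Gstp3*, -0.042 to 0.016 for *Gstm5* and -0.012 to 0.17 for *Sult1e1*. The cause was not tested. Genes under 10 CPM carried a median coefficient of variation of 18.4% in WT, against 7.31% above, which limits what could be called.

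Same-numbered libraries came from different mice, and their deviations from the group means correlated at 0.04, 0.02 and 0.04, so the replicate number was not treated as pairing. With it as a replicate block, 10 members were called lower and 1 higher, all 10 reported calls among them and *Gstp2* in addition, and *Ugt2b37* stood at 0.16 and *Gstp3* at 0.021.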
